A study of Mus musculus with 12 samples.

Results

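Transcripts of S100 calcium-binding proteins were examined in C57BL/6 mice at postnatal day 4, in the apical part of the first lower molar, where the root forms. The set holds the 10 genes S100a1, S100a4, S100a6, S100a8, S100a9, S100a10, S100a11, S100a13, S100a14 and S100a16, taken by symbol from a table of 25899 genes. They were chosen by name with their RPKM levels and genotype differences in these libraries already known, so both are given as a description and support nothing. Total RNA was sequenced in 6 libraries from Nfic-/- mice and 6 libraries from Nfic+/- littermate controls. Nfic encodes nuclear factor I-C, a transcription factor needed for molar roots to form, and the controls themselves carry a single working copy, so no library here comes from a wild-type animal. Libraries are named null or heterozygous by genotype and numbered 5 to 10, as in their labels. The series describes 6 pairs of littermates, but no label says that equal numbers mark a pair. No label says whether a library holds 1 animal or several, so the p-values measure the spread between these libraries.

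S100 proteins are small proteins with a pair of EF-hand loops that bind calcium and usually work as dimers. Inside cells they attach to partners such as annexins, cytoskeletal proteins and enzymes, and several are released and act on receptors such as the receptor for advanced glycation end products and TLR4. S100A8 and S100A9 form calprotectin, which is abundant in neutrophils, whereas S100A6, S100A10, S100A11, S100A14 and S100A16 are common in epithelia, where many S100 genes lie together in the epidermal differentiation region. Tooth epithelium and odontoblasts share the dissected tissue with blood vessels, blood cells and the dental follicle, and each library measures their mixture. In such bulk tissue, fewer cells of a type and less RNA per cell cannot be told apart.

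All 10 genes lie on mouse chromosome 3 (GRCm38), between bases 90511034 and 93564643, a span of 3.05 Mb, and all are annotated as protein-coding. S100a1 (90511034 to 90514392, minus strand) and S100a13 (90514435 to 90524581, plus strand) start back to back, with 42 bases between their annotated starts. S100a14 (90526856 to 90528837), S100a16 (90537254 to 90543151), S100a4 (90603771 to 90606045), S100a6 (90612882 to 90624181) and S100a8 (90668978 to 90670035) follow on the plus strand. S100a9 (90692632 to 90695721, minus strand) faces S100a8 across 22596 bases. S100a11 (93520488 to 93526287) and S100a10 (93555080 to 93564643) lie farther along, on the plus strand. S100a4 overlaps the predicted gene Gm42674 on the same strand, so its value is uncertain to the extent that reads could be split between them.

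The promoters of the calprotectin genes and the stretch between S100a1 and S100a13 are shown because these were the 2 pairs of members whose levels followed each other most closely. The first 2 sequences are the 250 bases before the RefSeq start (GRCm38.p6), read 5′ to 3′ along the gene's own strand, at chr3:90668821-90669070 (plus strand) for S100a8 and chr3:90695722-90695971 (minus strand) for S100a9. The third is the whole 42-base stretch between the GENCODE starts given above, at chr3:90514393-90514434, on the plus strand. RefSeq places some starts differently. The RefSeq start of S100a8 is base 90669071, whereas the gene as placed above begins at 90668978. The end of that window, with the matches marked in it, therefore lies inside the gene as placed above. The RefSeq start of S100a1 is base 90514330, against 90514392 above, so by RefSeq the third stretch would be longer. Capitals mark matches to the NFI core sequence TTGGC, which reads GCCAA on the other strand, to the TATA sequence TATAAA and to a C/EBP-type sequence written TTGCNNAA, all searched on both strands.
S100a8: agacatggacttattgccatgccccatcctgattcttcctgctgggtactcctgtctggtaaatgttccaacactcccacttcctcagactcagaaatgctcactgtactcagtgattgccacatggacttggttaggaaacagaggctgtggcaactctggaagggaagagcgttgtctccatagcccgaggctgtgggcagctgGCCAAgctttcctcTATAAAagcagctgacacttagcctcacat
S100a9: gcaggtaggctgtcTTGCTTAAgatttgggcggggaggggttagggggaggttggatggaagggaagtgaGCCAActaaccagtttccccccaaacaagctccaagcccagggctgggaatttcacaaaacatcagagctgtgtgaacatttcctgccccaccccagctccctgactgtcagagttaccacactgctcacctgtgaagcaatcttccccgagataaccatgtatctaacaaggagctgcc
between S100a1 and S100a13: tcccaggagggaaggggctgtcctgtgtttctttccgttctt
The S100a8 window holds an NFI core sequence that begins 44 bases before the RefSeq start and TATAAA 30 bases before it. The S100a9 window holds an NFI core sequence 180 bases and a TTGCNNAA match 236 bases before the start. The stretch between S100a1 and S100a13 holds none of the letters searched. A RefSeq window was given for 8 of the 10 genes, all except S100a10 and S100a14. The NFI core sequence was in 5 of these 8 windows (S100a8, S100a9, S100a11, S100a13 and S100a16), and in 41.9% of all 27025 RefSeq promoter windows of this length. The full palindrome, TTGGC followed after 5 bases by GCCAA, was in 0 of the 8 and in 0.0407% of all windows. TATAAA was in the windows of S100a4 and S100a8 (13% of all windows), TTGCNNAA in that of S100a9 (9.55%) and the AP-1 sequence TGANTCA in that of S100a11 (6.87%). S100a16 has a second RefSeq start, whose window, not counted in these shares, also holds TGANTCA, 192 bases before that start. These letters may overlap other motifs, and a match is not evidence of binding.

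The libraries held 70.2 to 96.4 M reads, and levels are given as RPKM, reads per kilobase of gene scaled to the size of the library, which allows levels of different genes to be set side by side. Nfic itself had 7.90, 11.5 and 16.5 RPKM (lowest, median and highest) in null libraries and 11.3, 15.9 and 24.5 RPKM in heterozygous libraries. The groups overlapped, and 1 null library lay above the heterozygous median; which bases the null allele lacks is not given in the sources used here, so a whole-gene value is a weak check of the labels. Defining tooth genes were present throughout. Amelx, for the enamel protein amelogenin, lay at 40547 to 102366 RPKM in null and 28240 to 106179 RPKM in heterozygous libraries, and Dspp, made by odontoblasts, lay at 292 to 599 RPKM in null and 441 to 766 RPKM in heterozygous libraries. Libraries 8 and 9 of both genotypes also held intestinal transcripts, with Fabp2 at 59.6 to 69.4 RPKM, and the 8 skeletal muscle markers summed to 48.2 RPKM in null library 9, with no heterozygous library above 9.54 RPKM. Numbers in the column headers repeat between libraries 5 to 7 and libraries 8 to 10, which points to at least 2 sample sheets, so values within each set are given where they differ.

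The 10 genes covered a wide range of levels. S100a11 had the highest mean over the 12 libraries, at 87.6 RPKM, followed by S100a10 at 74.7, S100a8 at 38.3, S100a6 at 36.9, S100a9 at 32.3, S100a16 at 28.3, S100a14 at 20.2, S100a1 at 19.8 and S100a13 at 10.3 RPKM. S100a4 was the lowest at 1.83 RPKM, which rested on about 52 to 139 reads per library. S100a11 and S100a10 ranked above 97.8% and 97.2% of the 12094 genes that averaged at least 1 RPKM, and S100a4 above 13.6%. Neighbours in this order overlapped in range, except S100a13 and S100a4. Compared within each of the 12 libraries, S100a1 lay above S100a13 in all 12 and S100a16 above S100a14 in 11. S100a14 lay above S100a1 in 8. S100a8 lay above S100a6 in 6, S100a6 above S100a9 in 7 and S100a9 above S100a16 in 6, so the order of these 4 genes is not fixed by these libraries. All 10 members passed the filter of a mean of 1 RPKM.

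**Figure D1:**
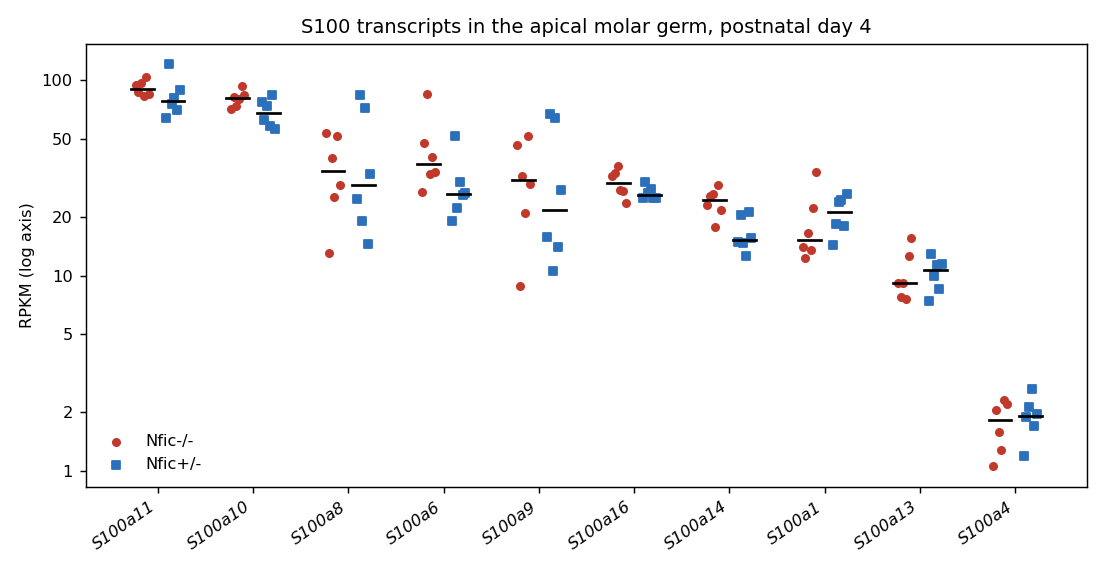
RPKM (log axis) of the 10 S100 genes in 6 Nfic-/- libraries (circles) and 6 Nfic+/- libraries (squares), with 1 point per library and a bar at each group's median. S100a8 and S100a9 spread over the widest range in both genotypes, and all 6 null libraries lie above the heterozygous median for S100a6, S100a10, S100a11 and S100a14.

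No S100 gene differed between the genotypes past the threshold. Differences are null minus heterozygous on the log2(RPKM + 1) scale, from limma fitted to all 12094 genes, with p-values adjusted over all of them by Benjamini-Hochberg. At a threshold of 0.05 on the adjusted p, 0% of all genes were called, and no gene came below 0.934. Before adjustment 317 genes (2.62%) stood higher in null libraries and 329 (2.72%) lower at p under 0.05, and among the members these were S100a14 and S100a10, both on the higher side. The median difference of the members was 0.13, against -0.0028 over all genes tested, and 6 of 10 members lay above 0, against 48.9% of all genes. In 0 of 10 members did the ranges of the genotypes separate, where 0.124% of all genes had every null library above every heterozygous one and 0.0331% the reverse. Since the members were picked with these values known, nothing about the family is read from those shares.

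**Figure D2:**
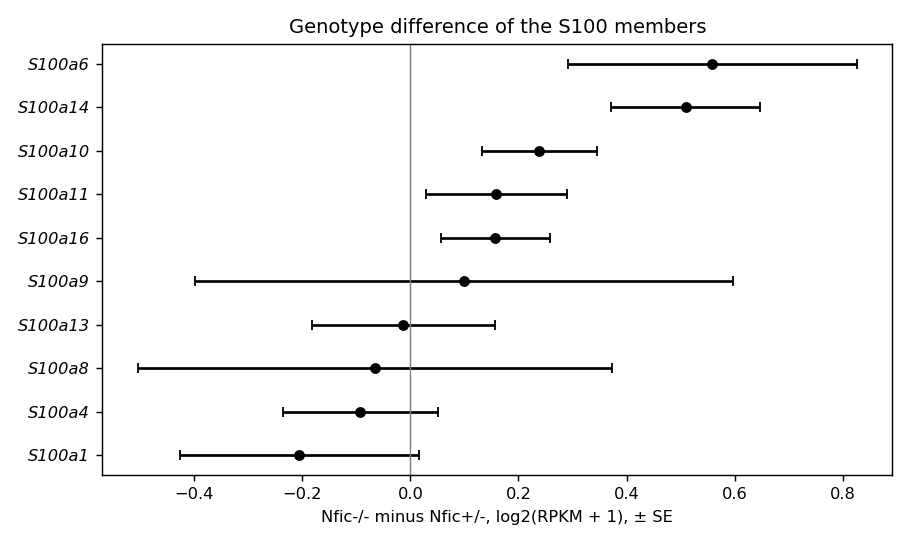
Difference between Nfic-/- and Nfic+/- libraries for each S100 gene on the log2(RPKM + 1) scale, with points for the limma estimate and bars for 1 standard error (6 libraries per genotype). S100a6 (0.56) and S100a14 (0.51) have the highest estimates, S100a1 (-0.21) the lowest, and the bars of S100a8 and S100a9 are the widest.

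Among the epithelial members, S100a14, which is made mainly in epithelia, had 17.8, 24.2 and 29.2 RPKM (lowest, median and highest) in null libraries and 12.6, 15.2 and 21.2 RPKM in heterozygous libraries. Of the null libraries 5 lay above the highest heterozygous one, and null library 8 was the exception, so the groups overlapped through it. The difference was 0.51 (SE 0.138, adjusted p = 0.934 by limma), and it was 0.56 within libraries 5 to 7 and 0.46 within libraries 8 to 10.

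S100a6 (calcyclin), which binds the ubiquitin-ligase adaptor CACYBP, had 26.9, 37.1 and 85.5 RPKM in null libraries and 19.1, 26.1 and 51.7 RPKM in heterozygous libraries. Null library 7 and heterozygous library 6 stood far above the rest of their groups, and the ranges overlapped. The difference was 0.56 (SE 0.267, adjusted p = 0.941 by limma). Without null library 7 it was 0.35, a drop of over 1.5 times, and without heterozygous library 6 it was 0.73. Within libraries 5 to 7 it was 0.75 and within 8 to 10 it was 0.37. Null library 7 also had the highest level of Krt1, a keratin of the upper epidermis, at 5.59 RPKM, against 0.857 to 1.72 RPKM in the other null libraries; the part of such tissue in the S100a6 value was not tested.

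S100a10 (p11), which has lost calcium binding and forms a tetramer with annexin A2, had 71.5, 81.1 and 93.0 RPKM in null libraries and 56.6, 67.9 and 84.1 RPKM in heterozygous libraries. The null libraries clustered in a narrow band, and the heterozygous ones fell both inside and below it. The difference was 0.24 (SE 0.107, adjusted p = 0.934 by limma), 0.09 within libraries 5 to 7 and 0.38 within libraries 8 to 10. Anxa2, its partner, had 94.0, 107 and 132 RPKM in null and 81.7, 100.3 and 133 RPKM in heterozygous libraries, a difference of 0.09 (SE 0.121, adjusted p = 1 by limma). The ratio of S100a10 to Anxa2 in RPKM spanned 0.632 to 0.828 in null libraries and 0.467 to 0.951 in heterozygous libraries, which enclosed the null range.

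S100a11 (calgizzarin), a partner of annexin A1, had 83.5, 90.5 and 104 RPKM in null libraries and 63.9, 78.1 and 121 RPKM in heterozygous libraries. Heterozygous library 6 held the highest value of all, and the other heterozygous libraries reached into the null range or below it. S100a16, a widely expressed member, had 23.6, 29.8 and 36.3 RPKM in null libraries and 24.9, 25.8 and 30.3 RPKM in heterozygous libraries. Its 3 highest values were null libraries 5 to 7, while its lowest was null library 10. The differences were 0.16 for S100a11 (SE 0.131) and 0.16 for S100a16 (SE 0.101), both with an adjusted p of 1 by limma. Without heterozygous library 5 the S100a11 value was 0.09, and without heterozygous library 6 it was 0.27. Without null library 7 the S100a16 value was 0.10. For S100a16 the value was 0.31 within libraries 5 to 7 and 0.01 within libraries 8 to 10.

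The calprotectin genes varied most between libraries. S100a8 had 13.1, 34.4 and 53.5 RPKM (lowest, median and highest) in null libraries and 14.6, 29.0 and 84.3 RPKM in heterozygous libraries. S100a9 had 8.87, 30.8 and 51.8 RPKM in null libraries and 10.5, 21.6 and 67.0 RPKM in heterozygous libraries. Heterozygous libraries 6 and 8 were the highest for both genes and null library 6 the lowest, so the null range sat mostly inside the heterozygous one. The highest library was 6.44 times the lowest for S100a8 and 7.56 times for S100a9, and 5.77% of all genes spanned 5 times or more. The genotype differences were -0.06 (SE 0.438) for S100a8 and 0.10 (SE 0.498) for S100a9, both with an adjusted p of 1 by limma.

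The pair followed each other across the 12 libraries, with Pearson's r = 0.97 and Spearman's rho = 0.98 on log2(RPKM + 1) (permutation p = 2e-05 and 1e-05, the second being the smallest that 100000 resamples can give; 0.0009 and 0.00045 after adjustment over 45 pairs of members). All permutation p-values here and below treat the 12 libraries as exchangeable. Most null libraries deviated from their group mean most like the heterozygous library of the same number, so these p-values may be too small. Leaving out heterozygous libraries 6 and 8, the farthest from the median of S100a8, gave r = 0.95, and r was 0.99 both within libraries 5 to 7 and within 8 to 10. The ratio of S100a8 to S100a9 in RPKM was 0.988 to 1.48 in null libraries and 1.04 to 1.81 in heterozygous libraries. The genes most like S100a8 over the libraries were Ngp (r = 0.98), Stfa3 (r = 0.98) and Lcn2 (r = 0.97), and those most like S100a9 were Camp, S100a8 and Stfa3 (r = 0.97 each). Ngp, Camp and Lcn2 encode proteins of neutrophil granules, and Stfa3 encodes a cysteine protease inhibitor.

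**Figure D3:**
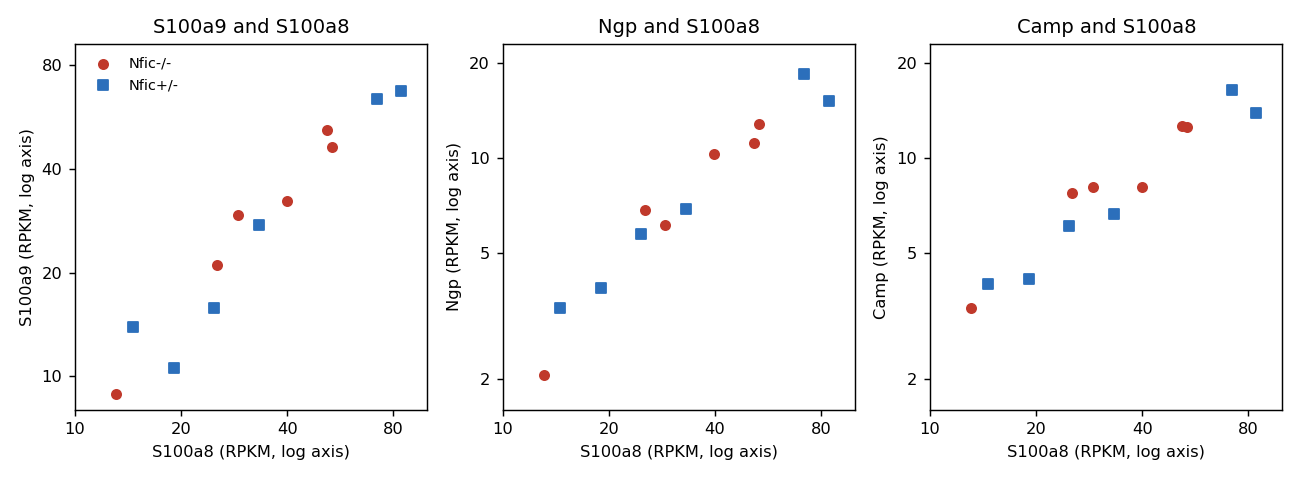
S100a9, Ngp and Camp (vertical axes) against S100a8 (horizontal axis) in RPKM, all on log axes, with 1 point per library (circles Nfic-/-, squares Nfic+/-). In each panel the points run along a rising line with both genotypes mixed along it, and null library 6 lies at the lower left.

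Neutrophil markers were low but present. All 14 genes of that list were above 0.1 RPKM in at least 1 library and 7 passed the filter. The summed level of the 14 was 10.1 to 69.5 RPKM in null libraries and 18.4 to 70.4 RPKM in heterozygous libraries. Mmp9, the highest of them on average, made up 2.28 to 25.8 RPKM in null and 5.51 to 20.6 RPKM in heterozygous libraries. In null libraries it was lowest in library 6 and highest in library 9, as was Acp5 of the osteoclast list (4.91 and 29.6 RPKM). In heterozygous libraries Mmp9 and Acp5 were both lowest in library 7, but their highest libraries differed. The part of osteoclasts in the Mmp9 level was not tested. The list holds neither S100a8 nor S100a9. Its mean log2(RPKM + 1) followed S100a8 with r = 0.95 and rho = 0.96, and S100a9 with r = 0.96 and rho = 0.96 (permutation p = 1e-05 for each, the smallest that the resamples can give, and 0.00065 after adjustment over 130 relations of 10 members with 13 marker lists). For marker lists, here and below, the 2 farthest libraries are those farthest from the median of the list's mean, not of the member. Without them r was 0.92 for S100a8 and 0.94 for S100a9. Within libraries 5 to 7 it was 0.997 and 0.989, and within 8 to 10 it was 0.91 for each. Whether these genes are read from neutrophils or from other cells of the germ was not tested.

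S100a1, a calcium sensor best known in heart and skeletal muscle, had 12.4, 15.3 and 33.9 RPKM in null libraries and 14.4, 21.2 and 26.2 RPKM in heterozygous libraries. The highest and the 3 lowest libraries were all null, and the difference was -0.21 (SE 0.222, adjusted p = 1 by limma), with -0.36 within libraries 5 to 7 and -0.05 within 8 to 10. It was -0.39 without null library 10, against -0.11, -0.13 and -0.14 without null library 6, null library 8 and heterozygous library 10. S100a13, which takes part in the release of FGF1 from cells, had 7.59, 9.20 and 15.7 RPKM in null libraries and 7.39, 10.7 and 12.8 RPKM in heterozygous libraries, ranges that overlapped nearly throughout. Its difference was -0.01 (SE 0.170, adjusted p = 1 by limma). S100a4, which binds non-muscle myosin and marks fibroblasts and some immune cells, had 1.05, 1.82 and 2.30 RPKM in null libraries and 1.20, 1.92 and 2.64 RPKM in heterozygous libraries, a difference of -0.09 (SE 0.144, adjusted p = 1 by limma).

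S100a1 and S100a13, the back-to-back pair, were the only other pair of members past the adjusted threshold by both coefficients, 2 of 45 in all. Pearson's r was 0.86 and rho 0.81 (permutation p = 0.00058 and 0.00204, adjusted 0.0131 and 0.0459). Without null libraries 10 and 6, the farthest from the median of S100a1, r was 0.74, and it was 0.63 within libraries 5 to 7 and 0.95 within libraries 8 to 10. Null library 10 was the highest for both genes. The ratio of S100a1 to S100a13 in RPKM was 1.53 to 2.17 in null libraries and 1.44 to 2.39 in heterozygous libraries.

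**Figure D4:**
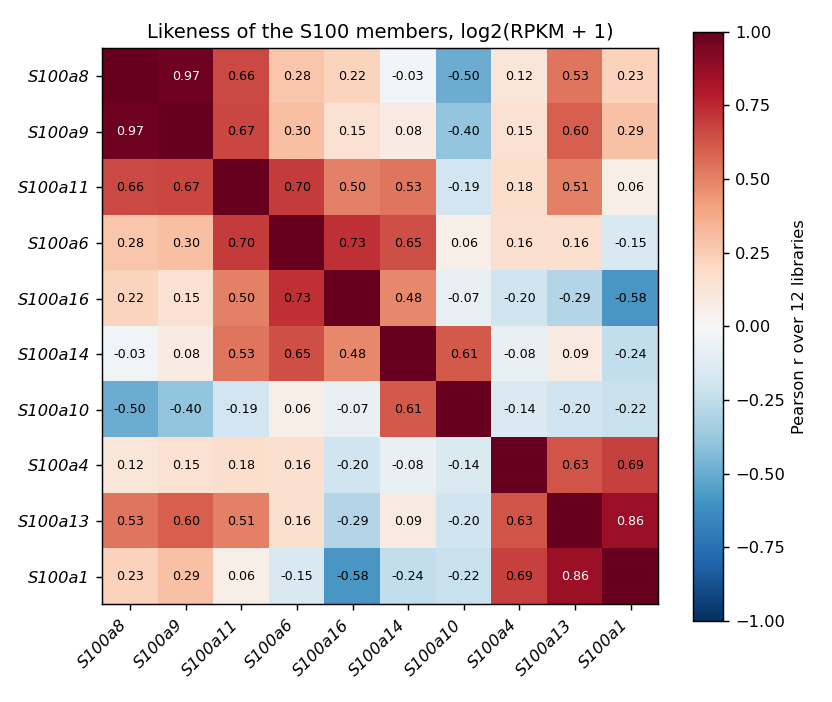
Pearson's r between each pair of the 10 S100 genes on log2(RPKM + 1) over 12 libraries, written in each cell and coloured from blue (-1) to red (1). S100a8 with S100a9 (0.97) and S100a1 with S100a13 (0.86) stand out. The most negative values are S100a1 with S100a16 (-0.58) and S100a10 with S100a8 (-0.50), neither past the adjusted threshold.

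The members also differed in which marker lists they followed, and 9 of the 130 relations passed the adjusted threshold by both coefficients. S100a16 followed the 12 dental epithelium markers with r = 0.90 and rho = 0.89 (permutation p = 3e-05 and 0.00035, adjusted 0.0013 and 0.00758). The r was 0.90 without the 2 farthest libraries, 0.95 within libraries 5 to 7 and 0.80 within 8 to 10. S100a6 had r = 0.83 and rho = 0.74 with the same list (permutation p = 0.00056 and 0.0074, adjusted 0.0091 and 0.0802), falling to r = 0.68 without the 2 farthest libraries, with 0.88 within libraries 5 to 7 and 0.70 within 8 to 10. S100a14 had r = 0.69 and rho = 0.68 (permutation p = 0.0147 and 0.0192, adjusted 0.119 and 0.13), which missed the threshold, with r = 0.59 without the 2 farthest libraries, 0.96 within libraries 5 to 7 and 0.40 within 8 to 10. S100a11 had r = 0.66 and rho = 0.60 (permutation p = 0.02 and 0.0431, adjusted 0.12 and 0.193), which also missed the threshold. S100a10 had r = 0.10, but -0.38 within null and -0.29 within heterozygous libraries. On deviations from the group means, r was 0.88 for S100a16, 0.76 for S100a6, 0.60 for S100a11, 0.50 for S100a14 and -0.31 for S100a10. All 12 epithelial markers had a difference above 0, against 48.9% of all genes, with a median of 0.30 and 0 past the adjusted threshold. Their summed level was 2130 to 3161 RPKM in null and 1755 to 2695 RPKM in heterozygous libraries. Krt14 had 568 to 776 RPKM in null and 417 to 636 RPKM in heterozygous libraries. The part of the epithelial share in the differences of S100a6, S100a11, S100a14 and S100a16 was not tested.

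S100a1 followed the dental follicle and ligament markers (r = 0.89, rho = 0.94, permutation p = 0.00021 and 3e-05, adjusted 0.00672 and 0.000975), with r = 0.87 without the 2 farthest libraries, 0.86 within libraries 5 to 7 and 0.95 within 8 to 10. It also followed the macrophage markers (r = 0.87, rho = 0.91, permutation p = 0.00026 and 9e-05, adjusted 0.00672 and 0.00234), with r = 0.84 without the 2 farthest libraries, 0.79 within libraries 5 to 7 and 0.98 within 8 to 10. S100a13 followed the macrophage markers as well (r = 0.87, rho = 0.94, permutation p = 0.00031 and 2e-05, adjusted 0.00672 and 0.000867), with r = 0.90 without the 2 farthest libraries, 0.88 within libraries 5 to 7 and 0.89 within 8 to 10. The remaining relations that passed were S100a1 with cartilage markers (r = 0.85, rho = 0.83, permutation p = 0.00038 and 0.00149, adjusted 0.00706 and 0.0277), S100a13 with follicle markers (r = 0.79, rho = 0.83, permutation p = 0.00212 and 0.00175, adjusted 0.0289 and 0.0284), and S100a13 with ameloblast markers, where the sign was negative (r = -0.80, rho = -0.79, permutation p = 0.00222 and 0.00334, adjusted 0.0289 and 0.0434). Without the 2 farthest libraries these were r = 0.86, 0.76 and -0.73. Within libraries 5 to 7 they were 0.83, 0.76 and -0.93, and within libraries 8 to 10 they were 0.76, 0.81 and -0.73. The 8 follicle and ligament markers summed to 234 to 851 RPKM in null and 468 to 930 RPKM in heterozygous libraries, and 7 of 7 tested lay below 0. The macrophage markers summed to 33.8 to 122 RPKM in null and 50.6 to 137 RPKM in heterozygous libraries, and 8 of 8 tested lay below 0. So did 10 of 10 dental mesenchyme, 7 of 7 endothelial, 3 of 3 cartilage and 2 of 2 osteoclast markers. Of the other non-epithelial lists, 4 of 7 neutrophil, 3 of 4 Schwann cell, 1 of 4 erythroid, 0 of 3 muscle and 0 of 4 intestine markers lay below 0. Of 6 ameloblast markers 5 lay above 0. Among all genes tested 48.9% lay above 0, and no marker of any list passed the adjusted threshold. The part of follicle cells, macrophages and other cell types in the levels of S100a1 and S100a13 was not tested.

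**Figure D5:**
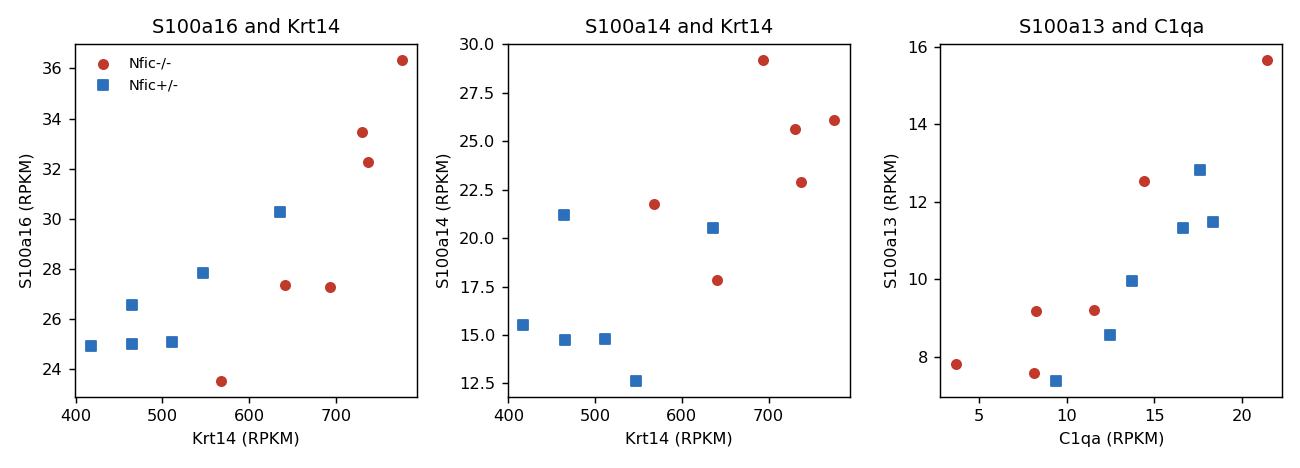
S100a16 and S100a14 against Krt14, a keratin of basal epithelium, and S100a13 against C1qa, a macrophage complement gene, in RPKM with 1 point per library (circles Nfic-/-, squares Nfic+/-). S100a16 is highest in the null libraries with the most Krt14, and S100a13 in null library 10, which has the most C1qa.

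The nearest genes of the other members had mixed roles. S100a6 was most like Krt27, a hair follicle keratin, Galc and Limk2 (r = 0.92, 0.92 and 0.89). S100a14 was most like Lass2, a ceramide synthase, Ppfia3 and Ap1m2, an epithelial clathrin adaptor subunit (r = 0.94, 0.92 and 0.92). S100a16 was most like Dmd, Slc39a6 and the ligand gene Wnt7b (r = 0.93, 0.92 and 0.92), and S100a11 most like Pigs, Zbtb6 and Obfc2b (r = 0.97, 0.96 and 0.96). S100a10 and S100a4 had no neighbour above 0.83, with Serp1, Klc4 and Ppip5k1 at r = 0.83, 0.82 and 0.81 and Ly96, Rdh5 and A2ld1 at r = 0.80, 0.80 and 0.77. S100a1 was most like Ctnnd2, Gap43 and Pf4 (r = 0.96, 0.95 and 0.95), and S100a13 most like P2rx4, Lactb2 and D0H4S114 (r = 0.96 each). These are the highest correlations among the 12094 genes over 12 libraries, and all of them share each library's tissue makeup.

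Other genes of the pathway gave no difference past the adjusted threshold. Of 9 annexins 5 lay above 0 and 4 below, with a median difference of 0.00, and Anxa8 (0.39, SE 0.271), Anxa5 (-0.20, SE 0.172) and Anxa1 (-0.19, SE 0.242) had the largest. Of 5 receptor genes tested 1 lay above 0, Bsg, which encodes basigin, a receptor for S100A9, with 333 to 399 RPKM in null and 287 to 354 RPKM in heterozygous libraries and a difference of 0.21 (SE 0.079, adjusted p = 0.934 by limma). Mcam differed by -0.20 (SE 0.185) and Cd68, which is also on the macrophage list, by -0.19 (SE 0.200). Ager, the receptor for advanced glycation end products, lay at 0.107 to 1.02 RPKM in null and 0.051 to 0.942 RPKM in heterozygous libraries, and Tlr4 at 0.131 to 0.490 RPKM in null and 0.227 to 0.823 RPKM in heterozygous libraries, both under the filter.

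Of 8 intracellular partners and enzymes tested, 5 lay above 0 and 3 below, with a median of 0.03. The largest differences were those of the transglutaminase genes Tgm1 (-0.40, SE 0.165, adjusted p = 0.934 by limma) and Tgm2 (-0.19, SE 0.151), and of Fgf1 (0.11, SE 0.093). Of 11 cornification genes only 5 were high enough to be tested. All 5 lay above 0, against 48.9% of all genes, with a median of 0.28, and 0 passed the adjusted threshold. Krt6a differed by 0.52 (SE 0.272), Krt1 by 0.28 (SE 0.286) and Krt16 by 0.44 (SE 0.094, adjusted p = 0.934 by limma). Without null library 7 these were 0.29 for Krt6a and 0.03 for Krt1. Lor, another of the 5, had 4.95 RPKM in null library 7. Its other null libraries reached 1.72 RPKM and its heterozygous libraries 1.83 RPKM, so its place above 0 leans on that library. Krt16, a stress keratin, had 10.1 to 13.4 RPKM in null and 6.75 to 9.85 RPKM in heterozygous libraries, so its groups did not overlap. Every null library lay above every heterozygous one in 0.124% of all genes, and Krt16 was named for its large difference.

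Of the other S100 genes, 6 were in the table and 1 reached the filter. S100b, a glial and Schwann cell member, had 0.480, 2.49 and 3.25 RPKM in null libraries and 1.68, 2.40 and 3.96 RPKM in heterozygous libraries, a difference of -0.19 (SE 0.228, adjusted p = 1 by limma) that was 0.02 without null library 6. S100a3 stayed at 0.276 to 0.511 RPKM in null and 0.0875 to 0.549 RPKM in heterozygous libraries, S100g at 0.288 to 0.564 RPKM in null and 0.0253 to 1.13 RPKM in heterozygous libraries, and S100a7a at 0.0143 to 0.301 RPKM in null and 0.0134 to 0.196 RPKM in heterozygous libraries. S100a5 had no read in any of the 12 libraries, and S100z had none in 11 and 1 read in the other.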

How the data were processed

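The 6 Nfic-/- and 6 Nfic+/- total RNA libraries of apical molar germs were grouped by genotype label. Reads were aligned with TopHat2 to mm10, per the submitters' processing notes; versions and counting tool were not given in the sources used here. As deposited by the authors, the table holds log2 RPKM (-11.1 to 16.7), where linear RPKM had been assumed, so values were turned back to RPKM. Base 2 gave whole reads within 0.02 for 100% of 7081 low values (2677 genes), from which depth was read; no count test was made. A gene with no read carries 0.9 reads. Coordinates are from GENCODE M21 (24987 genes matched).

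Genes averaging at least 1 RPKM (12094) were fitted as log2(RPKM + 1) with limma 3.58.1 (R 4.3.3), an intensity trend and genotype as the only term, with Benjamini-Hochberg adjustment at 0.05. The fit was tested on simulated data. The members and lists were chosen with earlier results of these data known. The text names the members, the other S100 genes and up to 3 genes per list by size of difference. It also names Anxa2, Ager, Tlr4, Lor, Nfic, the 3 nearest genes per member and up to 2 markers per cell type list. Fabp2 and Mylpf mark intestine and muscle. Correlations used each marker list's mean log2(RPKM + 1), tested 2-sided with 100000 permutations over all libraries, without regard to genotype or number. Alternatives were a replicate block, other pseudocounts, filters, scalings and variance models, and libraries left out. Python 3.11.15, numpy 2.4.6, pandas 2.3.3, scipy 1.17.1 and matplotlib 3.10.9 were used.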

Additional observations from a re-analysis of the deposited data

Results flagged for a closer look

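Of 90 groups of 6 libraries examined on log2(RPKM + 1) for a single outlying library, 4 were flagged by Dixon's criterion, where chance flags about 1 in 20. S100b in null library 6 was at 0.480 RPKM, against 1.87 to 3.25 RPKM in the other null libraries. Krt1 in null library 7 was at 5.59 RPKM, against 0.857 to 1.72 RPKM in the other null libraries. Mylpf, a skeletal muscle gene, was at 12.6 RPKM in null library 9, against 1.13 to 2.01 RPKM in the other null libraries. S100a7a in heterozygous library 9 was at 0.196 RPKM, against 0.0134 to 0.0364 RPKM in the other heterozygous libraries. None of the 10 members was flagged in either genotype on this scale. The flags depend on the scale, and S100a6 in null library 7 and heterozygous library 6 stood far above the rest in RPKM.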

How the results depend on the processing

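The count of genes past the adjusted threshold was 0 in the main limma fit and in all 25 alternatives, and the count at an unadjusted p under 0.05 ran from 271 to 1249, against 646. Null and heterozygous libraries of equal number deviated from the means of their groups with correlations of 0.492, 0.00502, 0.310, 0.667, 0.688 and 0.802 for numbers 5 to 10, and 5 of 6 null libraries correlated best with their own number. Since number 6 showed no such correlation and no label ties numbers to litters, the block is an alternative only. With the replicate block limma called 0 genes (smallest adjusted p = 0.0872), and S100a14 had the smallest adjusted p of any member over the alternatives, 0.180 (difference 0.51, SE 0.0803), with the null library higher at 6 of 6 numbers. Of the 10 members 7 kept their direction in every alternative. S100a8, S100a9 and S100a13 did not. Leaving out 1 library moved S100a4 between -0.17 and -0.01, S100a8 between -0.30 and 0.20, S100a9 between -0.14 and 0.41, S100a13 between -0.13 and 0.058 and S100b between -0.29 and 0.019. Without both libraries numbered 6 the values were 0.44 for S100a8, 0.68 for S100a9, 0.11 for S100a13 and 0.057 for Anxa1. In libraries 8 to 10 alone they were 0.033 for S100a8, 0.13 for S100a13, 0.0012 for Anxa1 and 0.033 for Anxa5, and in libraries 5 to 7 alone they were -0.020 for Anxa2 and 0.068 for Mcam. S100a13 was at 0.016 with equal library medians and 0.00095 with quantile normalization. Leaving out 1 library also moved Anxa1, Anxa2, Anxa5, Anxa8, Mcam, Cd68, Tgm2, Fgf1 and Tchh by over 1.5 times; Anxa8 then spanned 0.30 to 0.66 and Anxa1 -0.33 to -0.06, with no change of sign in these 9 genes. The cause of these changes was not tested. S100a4, at about 52 to 139 reads per library, is the member most limited by depth.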

Other observations

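The S100 fused-type genes of the same chromosome region, which join an S100 domain to long repeats and serve hair and cornified epithelium, were mostly near the detection limit. Trichohyalin (Tchh) was the 1 of 7 to reach the filter, at 3.80, 6.25 and 9.41 RPKM (lowest, median and highest) in null libraries and 3.39, 4.97 and 6.11 RPKM in heterozygous libraries, a difference of 0.29 (SE 0.222, adjusted p = 1 by limma). Rptn, for repetin, had a median of 0.0234 RPKM in null and 0.0231 RPKM in heterozygous libraries. Its highest value was in library 7 of each genotype, at 2.66 RPKM in null and 0.385 RPKM in heterozygous. The genes of this group were named after their values were seen. Flg2 and Hrnr stayed under 0.1 RPKM in every library.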
